A study of Mus musculus with 15 samples.

Results

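Interferon-stimulated genes are the genes that cells switch on after sensing interferon, and 45 of them, listed by symbol, were followed here among the 46078 genes of the deposited count table. All 45 were found by their Ensembl identifiers, and all 45 passed the filter on low counts in each of the 3 comparisons. The libraries were made from the podocyte fraction of the kidney cortex of male C57BL/6J mice, which is what a magnetic column retains from a cortex digest labelled with rabbit antibodies to nephrin, a protein of the podocyte slit diaphragm. Young mice were 4 months old and were not injected (n = 5 libraries). Aged mice were 21 months old and received weekly intraperitoneal injections at 12 mg/kg over 8 weeks, either of RMP1-14, an antibody that blocks the receptor PD-1 (aged aPD1ab, n = 4; 47 days in the sample titles), or of its isotype control 2A3 (aged IgG2a, n = 4). Age and injection therefore change together between the young and either aged group and cannot be told apart there. The labels list 5 mice a group, but the numbers that head the columns of the table are not those of the titles. The groups of 13 columns were taken from the numbers beside the points in the study's principal component plot, and 2 columns were not used.

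Type I interferons signal through the receptor IFNAR and the kinases JAK1 and TYK2 to a complex that holds STAT2 and IRF9 and binds the interferon-stimulated response element (ISRE) in gene promoters. Type II interferon signals through IFNGR and acts at gamma-activated sites (GAS) in promoters, and it drives the guanylate-binding proteins (GBP) and immunity-related GTPases (IRG) in particular. The products sense foreign or misplaced nucleic acid, block translation and replication of viruses, and feed back on the pathway. The 45 genes were arranged by role into 10 RNA-binding effectors (IFIT and OAS families and the kinase PKR), 6 nucleic acid sensors, 4 transcription factors, 3 genes of the ISG15 system, 3 of the PARP and DTX3L group, 2 dynamin-like MX GTPases, 6 GBP and IRG GTPases and 11 others.

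The promoters of 33 of the 45 genes were in the RefSeq table used here (GRCm38.p6, 250 bases before to 50 bases after each gene's start). The core of the ISRE, GAAANNGAAA on either strand with overlapping matches counted, was present in 19 of the 33 (57.6%, 95% Wilson interval 40.8 to 72.8), against 3.99% of the promoters of 27025 genes. Followed by one more base, as GAAANNGAAAC, it was present in 15 of 33 (45.5%) against 0.944% of all genes. The GAS, TTCNNNGAA, was present in 7 of 33 (21.2%, interval 10.7 to 37.8) against 9.55%. All 5 GBP and IRG promoters held the ISRE core, as did all 3 of the nucleic acid sensors and 6 of 9 among the RNA-binding effectors, while 1 of 4 transcription factor promoters held it. The GAS was present in 2 of the 5 GBP and IRG promoters, 3 of 9 RNA-binding effectors and 2 of 9 other members, and in 0 of the rest. A match is a string of letters and was not tested for binding. The 200 bases before the start base of 8 genes are printed here 5′ to 3′ on the gene's own strand, with the ISRE core or its reverse complement in capitals: Isg15 for its run of overlapping copies, Ifit1, Ifit3 and Ifit3b for their spaced pairs, Oas1a and Bst2 for a pair that overlaps, Gbp7 as a GBP gene, and Irf7 as the gene with the largest range across libraries in its role group and no match.
Isg15: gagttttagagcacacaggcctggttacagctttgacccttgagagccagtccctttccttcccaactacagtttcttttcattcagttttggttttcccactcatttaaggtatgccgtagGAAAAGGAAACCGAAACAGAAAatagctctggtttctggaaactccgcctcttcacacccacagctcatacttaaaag
Ifit1: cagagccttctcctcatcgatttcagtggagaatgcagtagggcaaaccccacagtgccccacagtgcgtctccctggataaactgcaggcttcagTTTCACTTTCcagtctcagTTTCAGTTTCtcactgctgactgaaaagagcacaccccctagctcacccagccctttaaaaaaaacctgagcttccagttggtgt
Ifit3: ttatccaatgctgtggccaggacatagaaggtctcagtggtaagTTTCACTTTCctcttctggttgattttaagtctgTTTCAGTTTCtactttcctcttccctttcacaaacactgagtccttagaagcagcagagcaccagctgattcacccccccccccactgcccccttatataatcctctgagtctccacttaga
Ifit3b: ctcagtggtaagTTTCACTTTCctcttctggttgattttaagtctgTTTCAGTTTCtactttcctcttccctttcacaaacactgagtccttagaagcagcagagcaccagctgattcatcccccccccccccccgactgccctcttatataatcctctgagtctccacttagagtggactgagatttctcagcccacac
Oas1a: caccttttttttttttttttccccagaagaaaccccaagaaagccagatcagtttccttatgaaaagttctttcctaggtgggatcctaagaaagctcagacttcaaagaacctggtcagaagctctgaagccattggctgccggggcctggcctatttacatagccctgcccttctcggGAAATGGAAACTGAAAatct
Bst2: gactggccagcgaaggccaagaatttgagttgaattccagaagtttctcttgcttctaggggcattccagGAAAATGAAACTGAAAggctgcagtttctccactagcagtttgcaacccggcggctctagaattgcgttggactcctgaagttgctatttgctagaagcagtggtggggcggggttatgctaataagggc
Gbp7: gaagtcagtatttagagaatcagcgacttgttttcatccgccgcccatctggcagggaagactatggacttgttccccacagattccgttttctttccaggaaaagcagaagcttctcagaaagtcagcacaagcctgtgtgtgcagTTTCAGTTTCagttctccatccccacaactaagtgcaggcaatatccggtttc
Irf7: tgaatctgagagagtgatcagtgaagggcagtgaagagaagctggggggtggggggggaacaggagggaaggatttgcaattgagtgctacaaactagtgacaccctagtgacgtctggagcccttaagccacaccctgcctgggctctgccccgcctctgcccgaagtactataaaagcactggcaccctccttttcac
The stretches lie at chr4:156200819-156201018 (- strand), chr19:34640689-34640888, chr19:34583329-34583528 and chr19:34607757-34607956 (+ strand), chr5:120907526-120907725 and chr8:71537473-71537672 (- strand), chr3:142530136-142530335 (+ strand) and chr7:141266425-141266624 (- strand). In Isg15 the first bases of 3 overlapping copies stood at -78, -72 and -66, counted from the start base as 0. In Ifit3 and Ifit3b, neighbouring genes on chromosome 19, the pairs stood at -156 and -122 and at -188 and -154, and the stretches shared an identical run of 119 bases shifted by 32. The Gbp7 stretch also held GAS matches at -106 and -87, the Oas1a stretch one at -98 and the Bst2 stretch one at -136.

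The libraries held 19912969 to 32717100 counts, so a floor of 3 counts lies at 0.0843 to 0.207 CPM (read counts scaled to one common library size, with TMM factors), and these floors cover counting error only. Every one of the 45 genes lay above it in all 13 libraries. The markers of podocytes (Nphs1, Wt1, Podxl, Synpo and Cdkn1c) summed to 619 to 1042 CPM in young, 212 to 296 in aged IgG2a and 164 to 551 in aged aPD1ab libraries, while 7 macrophage markers summed to 1712 to 3228, 2771 to 8438 and 2138 to 4857, and 7 proximal tubule markers to 4726 to 7429, 713 to 3372 and 3294 to 10002. The fraction is thus a mixture, and in bulk RNA fewer cells of a type and less RNA per cell cannot be told apart. Aged IgG2a replicate 1 stands apart from the other 3 aged IgG2a libraries in the study's principal component plot, and its macrophage sum was 2771 CPM against 6809 to 8438 in the others, its tubule sum 3372 against 713 to 1064. The counts of members called in each comparison that holds it are therefore given with and without it, and so are the tests of some single genes.

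On a scale per transcript length (TPM, read counts divided by exon length and scaled to the same total in each library), which is the one on which genes can be compared, the most abundant members in young mice were Lgals3bp, a secreted scavenger-receptor protein, at 88.4 ± 27.5 TPM, Bst2, the membrane tether tetherin, at 82.2 ± 18.6, and Samd9l, an antiviral and growth-restraining factor, at 76.3 ± 10.0 (SD, n = 5). The levels of these 3 overlapped within their SD. Ifi27 followed at 54.4 ± 5.42 TPM, and the lowest were Herc6 at 5.10 ± 1.10 and Mx2 at 4.97 ± 1.74. The 45 genes together summed to 1240 to 2138 CPM in young libraries, 1277 to 5451 in aged IgG2a and 1344 to 2745 in aged aPD1ab.

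The widest departures stood in single libraries. Taking each gene relative to its mean in the 5 young libraries, the median over the 45 genes was 0.734 to 1.34 in the young libraries. It was 0.797, 3.19, 1.48 and 1.41 in aged IgG2a replicates 1 to 4, and 0.784, 1.69, 0.937 and 0.773 in aged aPD1ab replicates 1 to 4. Aged IgG2a replicate 2 was the highest of all 13 libraries for 40 of the 45 genes, and 37 were over 2-fold above the young mean in it. Aged aPD1ab replicate 2 was highest of its group for 41 of 45 genes and had 15 genes over 2-fold above the young mean, while the other 3 libraries of its group had 0, 1 and 0. Aged IgG2a replicate 1 lay below the young mean for 40 genes. These counts cover the members only, and the shares of all genes in the same libraries were not computed.

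**Figure D1:**
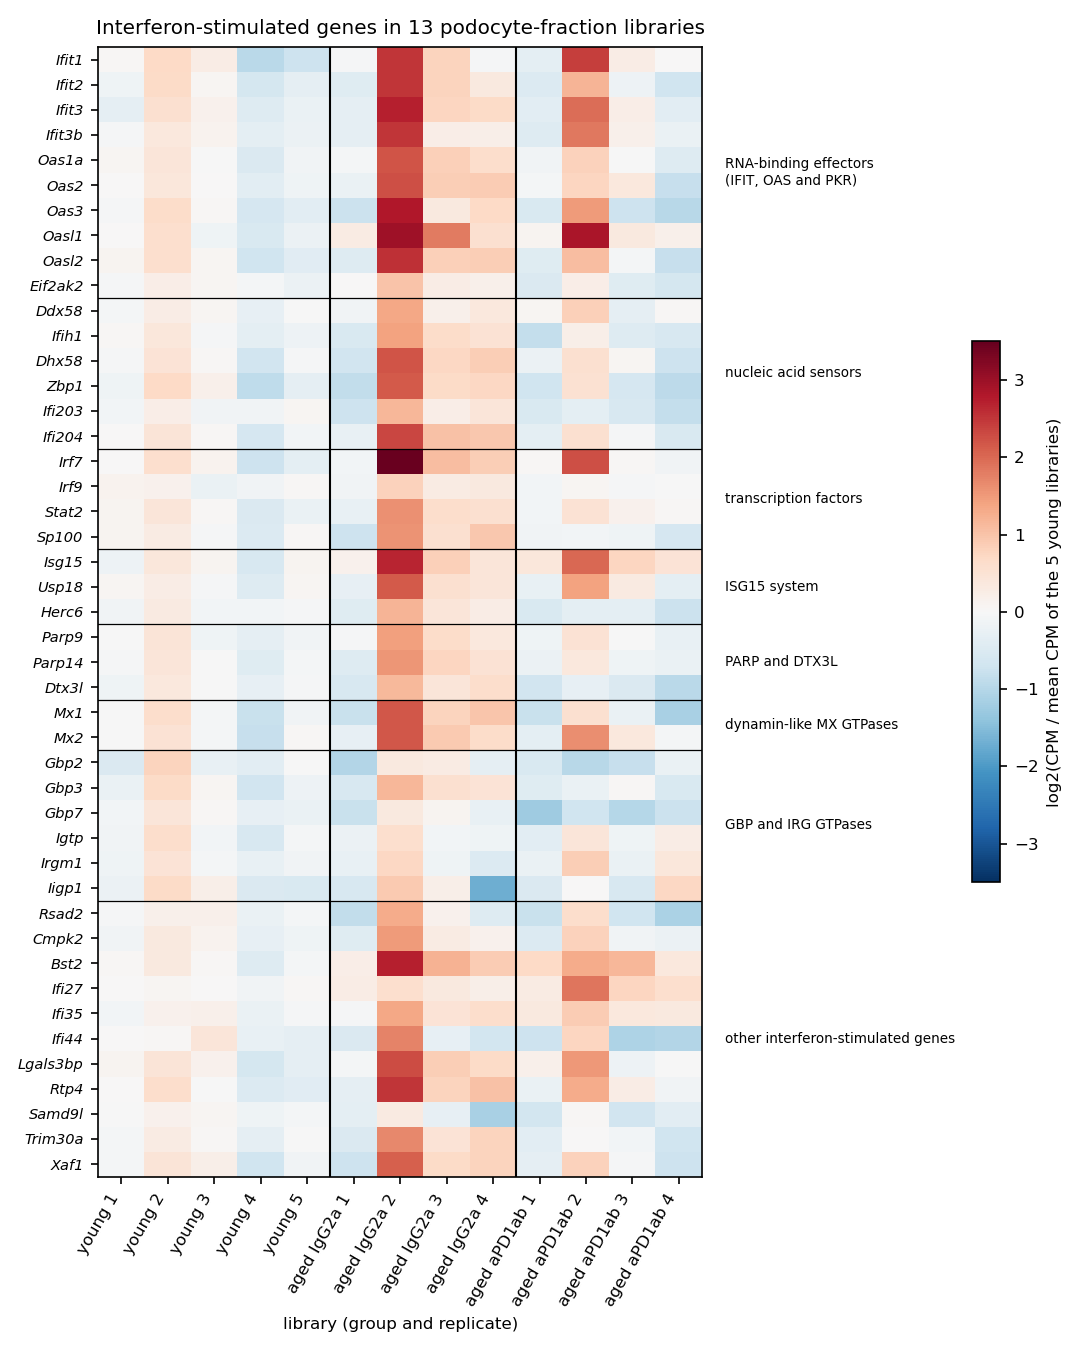
Heat map of the 45 interferon-stimulated genes (rows, grouped by role) in the 13 libraries (columns, grouped as young, aged IgG2a and aged aPD1ab); colour gives log2 of the CPM over the mean CPM of the 5 young libraries, red above and blue below. The columns aged IgG2a 2 and aged aPD1ab 2 are red for most rows, with medians of 3.19 and 1.69 times the young mean, while aged IgG2a 1 is close to the young columns at 0.797.

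Each aged library was also set against the median of the other 3 of its own group, without use of the young mice. The same libraries stood out, but the CPM values are the same, so this is no separate check. Aged IgG2a replicate 2 had a median ratio of 2.64 over the 45 genes (1.27 for Ifi27 to 6.03 for Irf7), with 31 over 2-fold. Aged aPD1ab replicate 2 had a median ratio of 1.86 (0.742 for Gbp2 to 6.47 for Oasl1), with 20 over 2-fold. No other aged library had a median ratio above 1.08 or more than 1 gene over 2-fold. Shares over all genes were not computed for these ratios either. By role, the RNA-binding effectors stood highest, with median ratios of 4.27 and 3.69 in these libraries, and the GBP and IRG GTPases lowest in aged IgG2a replicate 2, at 1.64, and near the lowest in aged aPD1ab replicate 2, at 1.34, where the transcription factors were at 1.23. Across the 45 genes the log2 ratios of the libraries ran together (Pearson's r = 0.838, Spearman's rho = 0.814, n = 45 genes, which are not independent replicates and share each library's depth and cell makeup). Ifi27 and Bst2 departed from this: Ifi27 was raised mainly in the aPD1ab library and Bst2 mainly in the IgG2a library. This pair of libraries was chosen as the highest of either aged group for the same genes. No other pair was correlated, so the size of r has no reference value here.

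**Figure D2:**
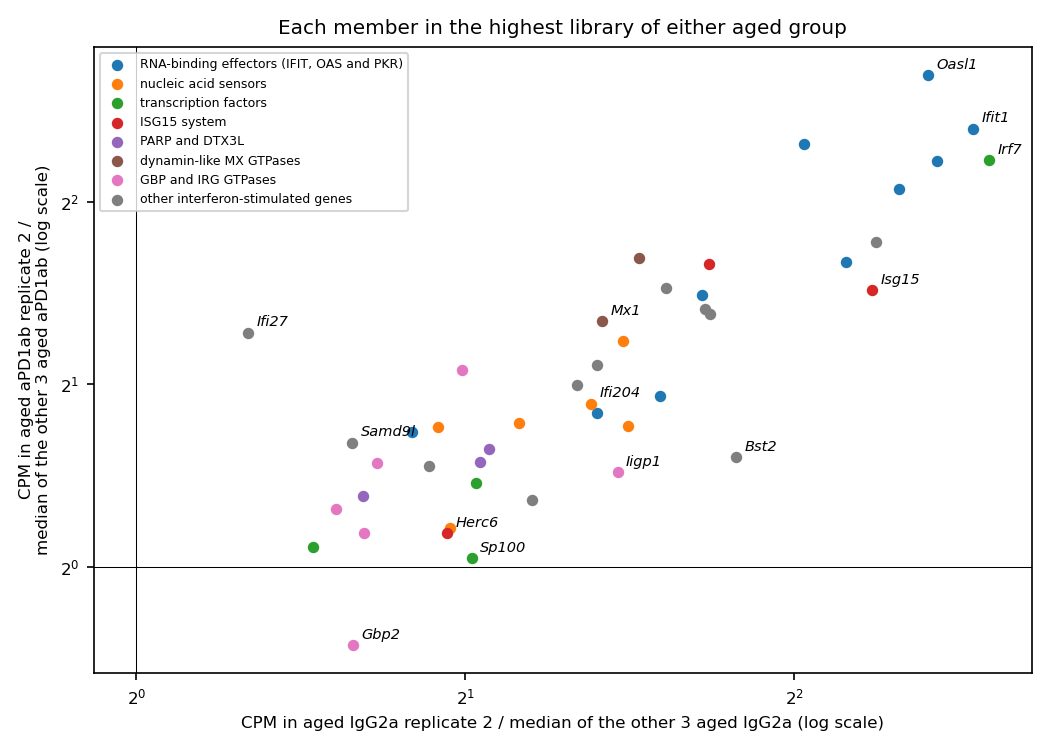
Each of the 45 genes as a point, coloured by role: CPM in aged IgG2a replicate 2 over the median of the other 3 aged IgG2a libraries (x axis, log scale) against CPM in aged aPD1ab replicate 2 over the median of the other 3 aged aPD1ab libraries (y axis, log scale). RNA-binding effectors reach 5.83 and 6.47, Irf7 lies at 6.03 on the x axis, and Gbp2 is the one gene below 1 on the y axis, at 0.742.

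The macrophage and tubule markers of these libraries did not move the same way. Aged IgG2a replicate 2 had a macrophage sum of 8438 CPM, beside 8044 and 6809 in replicates 3 and 4, and the macrophage receptor Csf1r was at 1267 CPM in it, beside 1258 and 1101. Aged aPD1ab replicate 2 had the lowest macrophage sum of its group, 2138 CPM, the lowest podocyte sum, 164, and the highest tubule sum of all 13 libraries, 10002. The markers of plasmacytoid dendritic cells, a major source of type I interferon, summed to 1.18 to 5.05 CPM in all libraries, and 6 T and NK cell markers to 2.90 to 15.3. The part of cell makeup in the height of single libraries was not tested beyond these values.

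**Figure D3:**
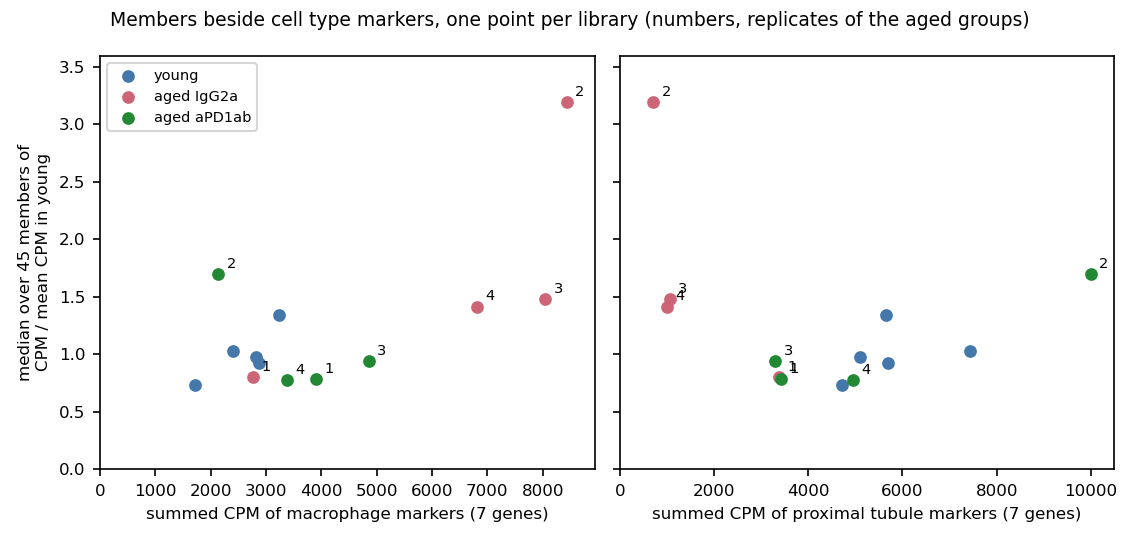
One point per library: the median over the 45 genes of CPM relative to the mean of the young libraries (y axis) against the summed CPM of 7 macrophage markers (left) and of 7 proximal tubule markers (right), coloured by group and numbered by replicate in the aged groups. Aged IgG2a replicates 2, 3 and 4 share high macrophage sums (6809 to 8438 CPM) at medians of 3.19, 1.48 and 1.41, and aged aPD1ab replicate 2 lies at a median of 1.69 with a macrophage sum of 2138.

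The first comparison asked how the genes differ between aged mice given the control antibody and young mice. With all 4 aged IgG2a libraries, 42 of the 45 fold changes were positive, but only Oasl1, Bst2 and Ifi27 rose past an adjusted p of 0.05 (6.67% of the members, against 9.05% of the 15953 genes tested), and no member fell (8.38% of all genes did). In this fit the share of members called was no higher than that of all genes. On the same libraries DESeq2 called 16 members higher (35.6%, against 12.1% of all genes with an adjusted p) and limma voom 34 (75.6%, against 24.4%). Of these 3, Oasl1 and Bst2 also passed a change over 2-fold, a rule that 3.89% of all genes met upward and 4.59% downward. The median log2 fold change of the members was 0.87, against 0.04 over all genes. Without aged IgG2a replicate 1, 36 members rose (80.0% of them, against 22.1% of the genes tested) and 0 fell (23.5% of the genes tested), with a median log2 fold change of 1.13. The 3 calls with all libraries also rest on the young libraries. Leaving out young replicate 1, 3, 4 or 5 or aged IgG2a replicate 3 left 0, where 1.60% to 4.72% of all genes tested were called higher. In these fits an unadjusted p under 0.05 (edgeR) was met by 15 to 29 members. Over all 15731 to 16280 genes it was met by 2463 to 2820 upward and 2004 to 2376 downward. Leaving out young replicate 2 left 1 (3.84% of all genes) and aged IgG2a replicate 4 left 2 (2.98%). Without aged IgG2a replicate 2 in place of replicate 1, 0 rose (1.78% of the genes tested, lowest adjusted p by edgeR 0.0611) and the median was 0.38. An unadjusted p under 0.05 (edgeR) was met there by 10 members, and over all 16189 genes by 2296 upward and 1968 downward. Without aged IgG2a replicates 1 and 2, 27 rose and 1, Samd9l, fell (17.3% and 18.8% of the genes tested), at a median of 0.59. Over TPM, where the median gene was shifted by -0.62, 27 members lay above 0 and 42 above the median gene; the corresponding shifts of the median gene in the comparisons below were 0.39 for aged aPD1ab against aged IgG2a and -0.20 for aged aPD1ab against young, with 4 and 26 members above it.

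**Figure D4:**
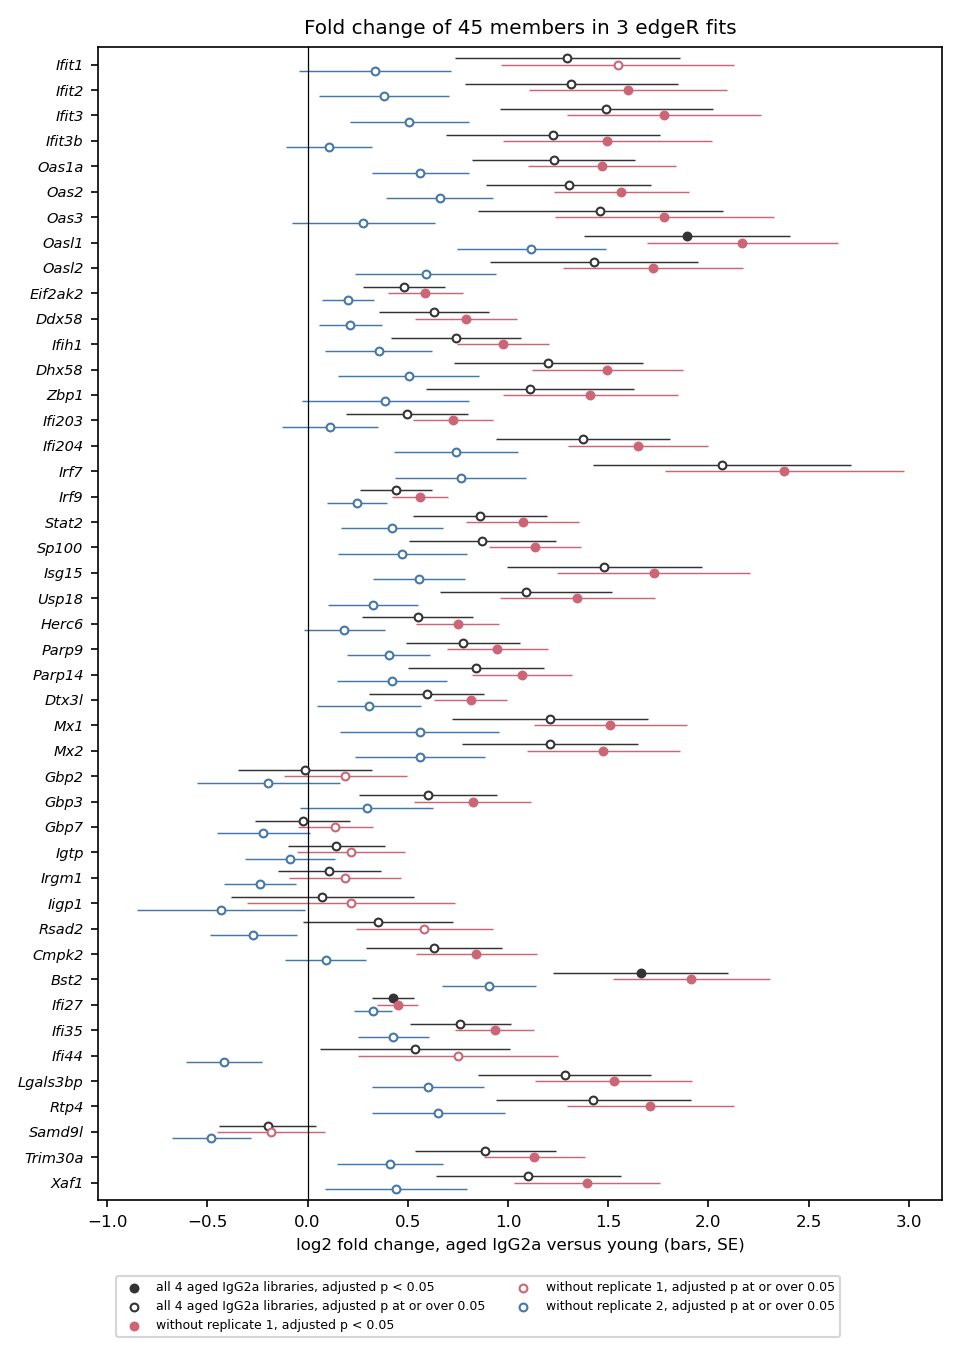
Log2 fold change between aged IgG2a and young libraries for the 45 genes, with bars for the SE, in 3 edgeR fits: all 4 aged IgG2a libraries (black), without replicate 1 (red) and without replicate 2 (blue); filled points have an adjusted p under 0.05. Filled points number 3, 36 and 0 in the 3 fits, and no point of Gbp2, Gbp7, Igtp, Irgm1 or Iigp1 is filled.

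Among the RNA-binding effectors, the 2′-5′ oligoadenylate synthetase-like gene Oasl1 (ENSMUSG00000041827, chromosome 5, 114923240 to 114937915, + strand) was at 5.43, 8.06, 4.84, 3.69 and 4.63 CPM in young replicates 1 to 5. It was at 6.51, 41.8, 19.0 and 7.88 in aged IgG2a and 5.68, 38.9, 6.75 and 6.02 in aged aPD1ab replicates 1 to 4. Aged IgG2a replicates 1 and 4 and aged aPD1ab replicates 1, 3 and 4 lay inside the young range, and replicates 2 of both aged groups stood far above it. Aged IgG2a replicate 3, at 19.0 CPM, was above the young range as well. The log2 fold change with age and IgG2a was 1.89 ± 0.51 (SE; edgeR adjusted p = 0.0351) and 1.12 ± 0.37 without aged IgG2a replicate 2 (edgeR adjusted p = 0.106). Oasl2, its paralogue that binds double-stranded RNA, was at 47.3, 67.1, 46.7, 27.7 and 33.7 CPM in young, 32.4, 262, 79.6 and 80.8 in aged IgG2a and 33.3, 93.6, 42.5 and 25.2 in aged aPD1ab libraries. Its fold change was 1.43 ± 0.52 (edgeR adjusted p = 0.0800) with all libraries and 1.72 ± 0.45 (edgeR adjusted p = 0.0143) without aged IgG2a replicate 1. Oas2, an oligoadenylate synthetase that feeds RNase L, was at 38.7 ± 7.62 CPM in young and 90.7 ± 66.6 in aged IgG2a mice (SD, n = 5 and 4; log2 fold change 1.30 ± 0.41, edgeR adjusted p = 0.0545). Ifit2 was at 32.2 ± 11.5 CPM in young and 75.9 ± 72.5 in aged IgG2a mice, and Oas3 at 14.2 ± 4.81 and 37.0 ± 41.2. In this group 9 of 10 rose without aged IgG2a replicate 1, against 22.1% of all genes tested. The exception was Ifit1, which binds viral RNA and was at 9.70, 56.8, 17.2 and 9.75 CPM in aged IgG2a. Eif2ak2, which encodes PKR, was at 31.2 ± 3.51 CPM in young and 41.5 ± 14.3 in aged IgG2a mice. Reads of Ifit3 and Ifit3b and of Oas1a and Oas1g are partly interchangeable, since 31.7%, 27.4% and 40.9% of the 100-base windows of Ifit3, Ifit3b and Oas1a recur in another transcript, so the split within these pairs is uncertain.

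The nucleic acid sensors had a median log2 fold change of 0.92 with age and IgG2a, against 1.31 for the RNA-binding effectors. Ifi204, a DNA sensor of the AIM2-like receptor family on chromosome 1, was at 42.4, 58.4, 43.3, 28.1 and 39.7 CPM in young, 35.1, 214, 86.3 and 82.1 in aged IgG2a and 33.3, 62.0, 40.8 and 29.0 in aged aPD1ab libraries. Aged IgG2a replicates 2 to 4 lay above every young library and replicate 1 did not. Its log2 fold change was 1.38 ± 0.43 (edgeR adjusted p = 0.0540) and 1.65 ± 0.35 without aged IgG2a replicate 1 (edgeR adjusted p = 0.00581). Its neighbour Ifi203 was at 64.3, 80.4, 62.7, 62.2 and 72.0 CPM in young, 41.4, 154, 79.6 and 91.3 in aged IgG2a and 47.6, 54.0, 46.7 and 38.3 in aged aPD1ab libraries, so that every aged aPD1ab library lay below every young one, and aged IgG2a replicate 1 did as well. Dhx58, which encodes LGP2, a partner of the RNA sensors RIG-I (Ddx58) and MDA5 (Ifih1), changed by 1.20 ± 0.47 (edgeR adjusted p = 0.0988). All 6 sensors, with Zbp1, rose without aged IgG2a replicate 1, against 22.1% of all genes tested. For Ifi204, 16.8% of the windows recur in Ifi211 or Mndal.

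Irf7, the transcription factor that amplifies type I interferon production (ENSMUSG00000025498, chromosome 7, 141262706 to 141266481, - strand), spanned the widest range of the members in CPM. It was at 46.4, 69.3, 49.5, 28.0 and 36.1 CPM in young replicates 1 to 5. It was at 43.0, 504, 97.8 and 83.5 in aged IgG2a and at 47.4, 221, 47.1 and 41.9 in aged aPD1ab replicates 1 to 4. Replicate 2 of either aged group was far above its group, and the other 3 aged aPD1ab libraries were inside the young range. Aged IgG2a replicates 3 and 4, at 97.8 and 83.5 CPM, also lay above every young library, and replicate 1 did not. Its log2 fold change of 2.07 ± 0.64 was the largest of the 45 (edgeR adjusted p = 0.0515), and it was 0.77 ± 0.33 without aged IgG2a replicate 2 (edgeR adjusted p = 0.177). Stat2 and Irf9, subunits of the complex that binds the ISRE, were at 62.3 ± 15.0 and 56.7 ± 6.33 CPM in young and 107 ± 58.1 and 73.4 ± 19.7 in aged IgG2a mice. Stat2 changed by 0.86 ± 0.33 (edgeR adjusted p = 0.0965), and Sp100, a nuclear body protein, by 0.87 ± 0.37 (edgeR adjusted p = 0.118). All 4 transcription factors rose without aged IgG2a replicate 1, against 22.1% of all genes tested.

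Isg15, the ubiquitin-like protein that is conjugated to other proteins after interferon (ENSMUSG00000035692, chromosome 4, 156199424 to 156200818, - strand), was at 8.87, 13.2, 10.7, 6.78 and 10.6 CPM in young, 11.2, 63.5, 17.9 and 13.5 in aged IgG2a and 13.1, 40.2, 17.0 and 14.1 in aged aPD1ab libraries. Replicates 2 stood highest in both aged groups, and of the other 6 aged libraries 4 lay above every young one. The change with age and IgG2a was 1.48 ± 0.49 (edgeR adjusted p = 0.0608), that of Usp18, the protease that removes ISG15 and restrains IFNAR, 1.09 ± 0.43 (edgeR adjusted p = 0.0988), and that of Herc6, the mouse ligase for ISG15, 0.55 ± 0.28 (edgeR adjusted p = 0.180). Herc6 was at 17.1, 23.1, 17.3, 17.6 and 17.9 CPM in young, 13.8, 42.7, 24.9 and 22.2 in aged IgG2a and 12.8, 14.5, 14.6 and 11.1 in aged aPD1ab libraries, and every aged aPD1ab library was below every young one. For Herc6, 20.9% of the windows recur in Gm45193, which overlaps it on the same strand.

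Parp14 and Parp9 encode mono-ADP-ribosyltransferase family proteins, and Dtx3l the ubiquitin ligase partner of PARP9. Parp14 was at 89.8, 122, 90.8, 68.6 and 87.2 CPM in young, 67.6, 270.1, 154 and 131 in aged IgG2a and 79.7, 119, 82.8 and 77.4 in aged aPD1ab libraries. Parp9 was at 29.3, 40.4, 26.6, 23.9 and 27.3 in young, 28.6, 79.7, 46.2 and 37.9 in aged IgG2a and 26.8, 41.9, 29.4 and 24.6 in aged aPD1ab libraries. In aged IgG2a, replicates 2 and 3 of both genes were above every young library. Their changes were 0.84 ± 0.34 and 0.78 ± 0.28 (edgeR adjusted p = 0.106 and 0.0811). Parp9 and Dtx3l overlap on opposite strands of chromosome 16, and since no strand setting is stated, reads in the overlap cannot be assigned. The same limit may hold elsewhere, since the spans of 14 members are overlapped by another protein-coding or long noncoding gene. Irf7 (Phrf1), Oasl1 (Gm13822) and Ifi35 (Gm11626) are among those overlapped on the opposite strand. Irf9 (Rnf31), Ifi203 (Mndal) and Igtp (Irgm2) are among those overlapped on the same strand.

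Mx1 was at 21.7, 33.7, 20.6, 12.8 and 20.2 CPM in young, 12.6, 99.0, 37.1 and 42.9 in aged IgG2a and 12.7, 32.3, 18.7 and 9.95 in aged aPD1ab libraries. Mx2 was at 7.09, 10.2, 6.83, 4.09 and 7.31 in young, 5.83, 32.1, 13.3 and 11.1 in aged IgG2a and 5.56, 22.0, 9.13 and 6.80 in aged aPD1ab libraries. Both code for antiviral dynamin-like GTPases, for which C57BL/6 mice are known to carry defective alleles, and Mx2 is annotated as a polymorphic pseudogene in GENCODE M21. Both showed the order of most members, with aged IgG2a replicate 2 highest and aged IgG2a replicate 1 inside or below the young range. Their changes of 1.21 ± 0.49 and 1.21 ± 0.44 did not pass with all libraries (edgeR adjusted p = 0.106 and 0.0814) and did without aged IgG2a replicate 1 (edgeR adjusted p = 0.0127 and 0.0127).

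The GBP and IRG GTPases, which attack the membranes of intracellular microbes, had the smallest median change of the role groups. Gbp3 was at 25.8, 47.6, 31.6, 18.9 and 26.5 CPM in young, 20.3, 67.4, 44.5 and 41.7 in aged IgG2a and 22.5, 25.6, 30.7 and 20.7 in aged aPD1ab libraries, a change of 0.60 ± 0.34 (edgeR adjusted p = 0.233). Irgm1, a regulator of autophagy among the IRG proteins, was at 62.5, 97.1, 66.8, 58.7 and 64.4 CPM in young, 58.4, 116, 63.2 and 49.7 in aged IgG2a and 59.7, 126, 59.0 and 92.6 in aged aPD1ab libraries. The groups of Irgm1 overlapped, and each held at least 1 library well above its own median. Its change was 0.11 ± 0.26, that of Iigp1 0.07 ± 0.46 and that of Igtp 0.14 ± 0.24 (edgeR adjusted p = 0.790, 0.924 and 0.699), and all 3 turned negative without aged IgG2a replicate 2, at -0.24, -0.43 and -0.09. Of the 6 genes, Gbp3 alone rose without aged IgG2a replicate 1, where 22.1% of all genes tested did. The median log2 fold change of the group was 0.09 with all libraries. The difference between these groups of genes was not tested.

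Of the 11 other members, 2 rose with all libraries, against 9.05% of all genes tested. Bst2 (ENSMUSG00000046718, chromosome 8, 71534255 to 71537456, - strand) was at 30.0, 36.9, 30.2, 21.5 and 28.1 CPM in young, 34.6, 194, 68.8 and 54.8 in aged IgG2a and 47.2, 71.5, 66.2 and 37.8 in aged aPD1ab libraries, and every aged library but aged IgG2a replicate 1 lay above every young one. Its rise was 1.66 ± 0.44 in log2 units (edgeR adjusted p = 0.0321). Ifi27, a small mitochondrial and nuclear-envelope protein (ENSMUSG00000064215, chromosome 12, 103434211 to 103440239, + strand), was at 31.8, 33.1, 31.6, 28.7 and 32.6 CPM in young, 37.7, 47.7, 40.2 and 36.3 in aged IgG2a and 38.8, 116, 53.4 and 47.5 in aged aPD1ab libraries. In CPM, all 8 aged libraries, aged IgG2a replicate 1 included, were above all 5 young libraries. The rise of 0.42 ± 0.10 in aged IgG2a was small but even on this scale (edgeR adjusted p = 0.0263). In TPM, where the median gene was shifted by -0.62, Ifi27 was not higher, at 54.4 ± 5.42 in young and 45.4 ± 14.4 in aged IgG2a mice (SD). Lgals3bp was at 106, 136, 111, 65.4 and 79.6 CPM in young, 94.5, 486, 181 and 159 in aged IgG2a and 112, 283, 88.7 and 97.8 in aged aPD1ab libraries, with replicate 2 of each aged group highest, and changed by 1.28 ± 0.43 (edgeR adjusted p = 0.0654). Samd9l was at 164 ± 13.3 CPM in young and 136 ± 53.7 in aged IgG2a mice (SD; log2 fold change -0.20 ± 0.24, edgeR adjusted p = 0.579). Rsad2, which encodes viperin, was at 44.1 ± 5.34 CPM in young and 53.4 ± 38.0 in aged IgG2a mice, and Xaf1, a pro-apoptotic zinc-finger protein, at 15.2 ± 4.28 and 31.0 ± 23.5. Without aged IgG2a replicate 1, 8 of the 11 rose, against 22.1% of all genes tested. They were Bst2, Ifi27, Lgals3bp and Xaf1 with Ifi35, Trim30a, Rtp4 and Cmpk2, the nucleotide kinase next to Rsad2. Rsad2, Ifi44 and Samd9l did not.

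**Figure D5:**
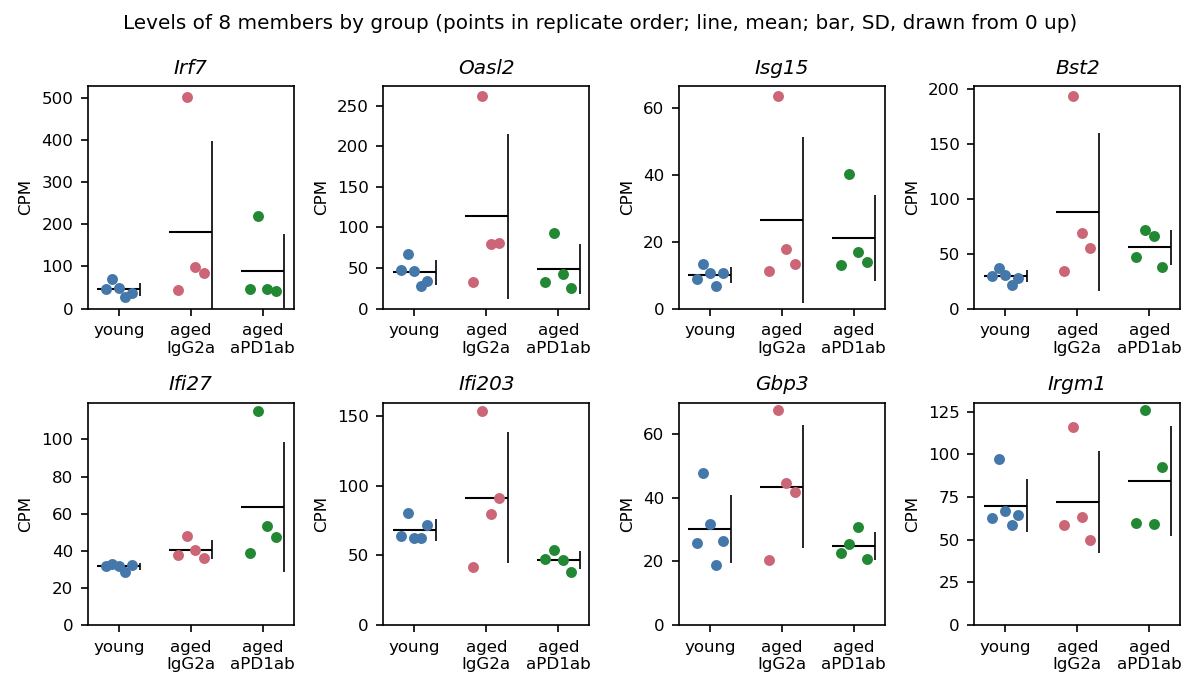
CPM of Irf7, Oasl2, Isg15, Bst2, Ifi27, Ifi203, Gbp3 and Irgm1 in each library, with a line at the group mean and a bar for the SD (young n = 5, aged IgG2a n = 4, aged aPD1ab n = 4); points run in replicate order. The second point of the aged IgG2a group is its highest in all 8 panels, at 504 CPM for Irf7, and Ifi27 is the panel in which all aged points lie above all young points.

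The second comparison set PD-1 blockade against the control antibody in aged mice. With all 4 aged IgG2a libraries, 0 members rose and 0 fell by edgeR, as for all 15530 genes tested (0.0% in either direction). An unadjusted p under 0.05 (edgeR) was met by 11 members, and over all genes by 2440 upward and 1901 downward. Still, 43 of the members' 45 fold changes were negative and their median was -0.72, against -0.01 over all genes. The 3 other tests called members lower: 5 by DESeq2 (5.29% of all genes with an adjusted p), 23 by limma voom with sample quality weights (18.9%) and 7 in one edgeR fit of all 3 groups (6.14%). Without aged IgG2a replicate 1, 15 fell (33.3% of the members, against 13.2% of all genes) and 0 rose (17.1% of all genes). Without aged IgG2a replicate 2, 0 were lower by edgeR, as were 0.0% of the 15803 genes tested. The unadjusted level was met by 4 members, and over all genes by 1470 upward and 1234 downward. In that fit 18 of 45 fold changes were positive and the median was -0.20. Replicate 2 of both groups was also left out, a choice made after their values were seen. That fit called 0 members (edgeR, unadjusted p under 0.05 for 15) and 0.0% of the 15559 genes tested. Its median was -0.59. Macrophage markers moved with this comparison, all 7 being lower without aged IgG2a replicate 1, and their part in the members' values was not tested.

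The 15 genes that fell without aged IgG2a replicate 1 held 5 of the 6 nucleic acid sensors (all but Ddx58), 3 GBP genes, 2 transcription factors (Sp100 and Irf9), Parp14, Dtx3l, Herc6, Mx1 and Trim30a, and none of the 10 RNA-binding effectors. Dtx3l was at 22.7, 72.9, 45.2 and 51.1 CPM in aged IgG2a and 20.9, 27.4, 23.6 and 17.4 in aged aPD1ab libraries and differed by -1.12 ± 0.33 (log2; edgeR adjusted p = 0.109), or -1.36 ± 0.22 without aged IgG2a replicate 1 (edgeR adjusted p = 0.00752). Ifi203 changed by -0.99 ± 0.35, Ifi204 by -1.36 ± 0.51, Herc6 by -0.99 ± 0.32 and Gbp7 by -0.82 ± 0.26 (edgeR adjusted p = 0.129, 0.137, 0.116 and 0.115). These 5 genes were lower by DESeq2, by limma voom and in the fit of all 3 groups, and with Eif2ak2 (-0.72 ± 0.28) and Trim30a (-1.10 ± 0.41) they were the 7 of that last fit. Irf7 changed by -1.04 ± 0.86 (edgeR adjusted p = 0.445) and by 0.22 ± 0.64 without aged IgG2a replicate 2, and Isg15 by -0.35 ± 0.62 and 0.53 ± 0.42. The tests of Dtx3l, Gbp7, Eif2ak2, Ifi35 and Trim30a, and the values by library of Bst2, Ifit1, Dtx3l and Gbp7, are given outside the rule for named genes, having been chosen after their values were seen.

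The third comparison set aged aPD1ab mice against the same young mice, so that it shares its young libraries with the first. Isg15, Bst2, Ifi27 and Ifi35 rose and Ifi203, Herc6, Dtx3l and Gbp7 fell (4 and 4 of 45, or 8.89% either way, against 12.4% and 9.97% of the 15986 genes tested), shares below those of all genes in both directions. The rises of Isg15 and Ifi27 were over 2-fold, as for 2.1% of all genes upward, and no fall was (2.69% of all genes). The median log2 fold change of the members was 0.08. Ifi27 rose by 1.03 ± 0.27 (edgeR adjusted p = 0.0234), Isg15 by 1.08 ± 0.33 (edgeR adjusted p = 0.0407), Bst2 by 0.93 ± 0.20 (edgeR adjusted p = 0.0111) and Ifi35, a partner of the protein NMI, by 0.52 ± 0.15 (edgeR adjusted p = 0.0302). Gbp7 was at 20.1, 28.9, 21.9, 17.6 and 18.2 CPM in young and 9.01, 13.3, 10.7 and 12.8 in aged aPD1ab libraries, which did not overlap, and its log2 fold change was -0.89 ± 0.18 (edgeR adjusted p = 0.00797). The changes of Ifi203, Herc6 and Dtx3l were -0.54 ± 0.12, -0.48 ± 0.13 and -0.57 ± 0.16 (edgeR adjusted p = 0.0126, 0.0243 and 0.0292). Irf7 and Oasl1 changed unevenly, by 0.97 ± 0.50 and 1.44 ± 0.57 (edgeR adjusted p = 0.183 and 0.0954), which were -0.01 ± 0.24 and 0.21 ± 0.24 without aged aPD1ab replicate 2. Without that library 2 members rose, Ifi27 and Bst2, and 9 fell (12.1% and 10.5% of the genes tested), Rsad2, Eif2ak2, Ifih1, Ifi44 and Samd9l joining the 4 genes above. One fit of all 3 groups kept 1 rise, of Ifi27, and 1 fall, of Gbp7 (9.13% and 8.64% of all genes tested). Leaving out young replicate 1 or 4 left 1 rise (8.66% and 8.44% of all genes) and young replicate 5 left 2 (9.80%), and leaving out young replicate 2 or aged aPD1ab replicate 4 left 2 falls (7.17% and 6.32%).

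Of the other genes of the pathway, 39 were listed and 29 passed the filter. None of 9 interferon ligand genes did: Ifnb1 was at 0.249, 0.0611, 0, 0.0671 and 0.0746 CPM in young, 0.0586, 0.491, 0.323 and 0 in aged IgG2a and 0.16, 0, 0.227 and 0.337 in aged aPD1ab libraries, at most 12 reads, Ifng reached at most 10 reads, and Ifna2, Ifna4, Ifne and Ifnl2 had no read in any library. Of 6 receptor subunits 4 rose in aged IgG2a with all libraries. Ifnar1 was at 81.4 ± 6.95 CPM in young and 124 ± 33.7 in aged IgG2a libraries (SD, n = 5 and 4), and Ifnar2 at 30.5 ± 5.18 and 61.6 ± 22.2, with Ifngr2 and Il10rb, while Ifnlr1, the subunit specific to type III interferon, was at 4.74 ± 0.478 and 4.66 ± 0.892 and did not pass. Of 7 kinases and transcription factors Irf5 alone rose, from 74.3 ± 12.0 to 148 ± 63.3 CPM. Of 10 sensors and adaptors 5 rose: the kinase Ikbke, the endosomal RNA receptor Tlr7, the adaptor Myd88, and Mb21d1 and Tmem173, which encode cGAS and STING. Of 7 restraints the phosphatase Ptpn2 rose, and the DNA exonuclease Trex1 was listed at 0 in all 13 libraries. In all, 11 of the 29 rose and 0 fell in this comparison (9.05% and 8.38% of all genes), and 20 and 0 without aged IgG2a replicate 1 (22.1% and 23.5%). Fits without another single library are not given for these genes. Without aged IgG2a replicate 2 or 3, the share of all genes called higher was 1.78% and 1.60%. In aged aPD1ab against young mice 4 rose (Ikbke, Socs3, Il10rb and Myd88) and 4 fell (Jak2, Tlr3, Tlr9 and Pias1; 12.4% and 9.97% of all genes), with Tlr9 at 35.3 ± 10.6 CPM in young and 17.4 ± 5.65 in aged aPD1ab libraries. Macrophages also express several of these genes, and all 7 macrophage markers rose in aged IgG2a with all libraries. Their part in the values of the pathway genes was not tested.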

How the data were processed

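RNA-seq was run on the podocyte fraction of the cortex of male mice, and 13 libraries were used (5 young, 4 aged IgG2a, 4 aged aPD1ab). The deposited table holds raw counts of reads per Ensembl gene made by the authors; the submitters' processing notes name HISAT2, featureCounts, GRCm38 and mm10. The strand setting is not given in the sources used here. Groups were read from the numbers beside the points of the study's principal component plot, replicates are numbered in column order, and 2 columns were not used. Each pair of groups was fitted alone in edgeR 4.0.16 (R 4.3.3; filterByExpr, TMM, robust quasi-likelihood test, Benjamini-Hochberg adjustment over all genes tested), with an adjusted p under 0.05 as the call. Levels are CPM on TMM sizes over all 13 libraries; TPM used GENCODE exon lengths. DESeq2 1.42.0, voom with quality weights in limma 3.58.1, RLE scaling, no filter, a fit of all 3 groups and leaving out each library were the alternatives. The scripts were tested on simulated data. Per role group, tests are given for the 2 most abundant members and the 2 with the smallest p between aged IgG2a and young; the members and lists were chosen with earlier results of these data known, and 2 listed genes are not reported here. The titles number separate mice but could not be tied to single columns, so p-values measure the spread between these libraries.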

Additional observations from a re-analysis of the deposited data

Results flagged for a closer look

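In groups of 4 or 5 libraries, a gene was listed when its highest or lowest library stood apart from the rest by Dixon's criterion at the 95% level. Of 135 groups tested (45 genes in 3 groups), 26 met it. The nominal rate of 1 in 20, which holds for independent and normally distributed values, gives about 6.75. The genes are not independent of each other, and the CPM values were not put on a log scale. The share of all genes that met the criterion in these libraries was not computed, so no excess of the members can be read from this.

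Aged IgG2a replicate 2 accounted for 8, all of them high: Irf7 at 504 CPM, Ifit3 at 168, Oas3 at 98.1, Isg15 at 63.5, Ifit1 at 56.8, Ifi44 at 47.7, Ifit3b at 44.8 and Igtp at 42.8. Aged aPD1ab replicate 2 accounted for 14, all high: Lgals3bp at 283 CPM, Irf7 at 221, Parp14 at 119, Ifit3 at 98.7, Ifit2 at 73.9, Rsad2 at 67.2, Ifit1 at 53.9, Isg15 at 40.2, Oas3 at 40.0, Oasl1 at 38.9, Zbp1 at 30.7, Ifit3b at 28.2, Ifi44 at 24.3 and Ifi35 at 23.7. Ifit1, Ifit3, Ifit3b, Oas3, Irf7, Isg15 and Ifi44 met it in both libraries.

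Young replicate 2 was high for 3 genes, Irgm1 at 97.1 CPM, Gbp2 at 58.5 and Herc6 at 23.1, and aged aPD1ab replicate 4 was low for 1, Sp100 at 49.4 CPM.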

How the results depend on the processing

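No paired analysis was possible because the labels give no replicate numbers that groups share and the column numbers name single libraries. Between aged IgG2a and young mice, the number of members that rose, 3, became 0 with no filter (3.18% of all genes tested), 16 by DESeq2 (12.1%) and 34 by limma voom (24.4%); it was 27 with aged IgG2a replicates 1 and 2 left out (17.3%; 1 fell there, 18.8%) and 0 to 36 when single libraries were left out (1.60% to 22.1%), with 0 falling. Between aged aPD1ab and aged IgG2a mice, the number lower, 0, became 5 by DESeq2 (5.29%), 23 by limma voom (18.9%), 7 in one fit of all 3 groups (6.14%) and 7 with aged IgG2a replicates 1 and 2 left out (4.46%), and ran from 0 to 15 over single libraries (0.0% to 13.2%). Between aged aPD1ab and young mice, the 4 rises became 1 in the fit of all 3 groups (9.13%) and 2 over 2-fold (2.1%), and 1 to 4 over single libraries (at least 8.19%), and the 4 falls became 8 by limma voom (11.5%), 1 in the fit of all 3 groups (8.64%) and 0 over 2-fold (2.69%), and 2 to 9 over single libraries (6.32% to 10.7%). The cause was not tested. With aged IgG2a replicates 1 and 2 left out, the log2 fold changes of Irgm1, Iigp1 and Igtp turned to -0.26, -0.40 and -0.071, and over single libraries they ran from -0.24 to 0.26, -0.43 to 0.36 and -0.089 to 0.35. Between aged aPD1ab and aged IgG2a mice, that of Isg15 was 0.020 with replicates 2 of both groups left out and 0.38 with aged IgG2a replicates 1 and 2 left out, and ran from -0.90 to 0.53 over single libraries, as that of Irf7 did from -2.05 to 0.22; between aged aPD1ab and young mice, that of Irf7 ran from -0.0051 to 1.21. Of single-gene values under alternatives between aged IgG2a and young mice, 267 kept their direction and side of the threshold, 59 passed it, 26 no longer passed it and 8 changed sign; the numbers were 101, 30, 0 and 4 for aged aPD1ab against aged IgG2a and 111, 0, 28 and 1 for aged aPD1ab against young. Leaving out 2 libraries at once was chosen after seeing the data. Depth left all 45 members above 3 counts in every library.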
